A study of Danio rerio with 6 samples.

Results

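The rod and cone phototransduction genes of larval zebrafish were described in RNA-seq libraries of dscaml1 mutant and wild-type pools. The genes were given as 43 symbols, chosen for their roles in photoreceptors but with earlier results of these data known. They were matched by symbol to the deposited table of 31901 genes. Of the 43 symbols, 41 were found and 2 (cnga1 and gc3) matched no symbol. A mean of at least 5 normalized counts over the 6 libraries was reached by 36 of the 41 genes, and these 36 entered the genotype test. The 5 that did not were the green opsins opn1mw3 and opn1mw4, the red opsin opn1lw1, the cone channel subunit cngb3.1 and the guanylyl cyclase gc2. By cell type, 9 of the 41 were rod genes, 19 were cone genes and 13 were not assigned to 1 of the types. The test took in all 9 rod genes, 15 of the cone genes and 12 of the unassigned genes.

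The mutants were dscaml1−/− larvae of mixed AB/TL background, homozygous for the vt1 allele, in which a few missing bases put this cell adhesion gene out of frame and bring in a premature stop codon. They were set against wild-type siblings from the same kind of cross between heterozygous parents. Each genotype had 3 pools of 6 to 11 larvae of 3.5 to 4 dpf, with no treatment, kept on a light and dark cycle. The pools are numbered 1 to 3 in each genotype, and a mutant and a wild-type pool with the same number are called a pair. The label of every sample reads whole animal, whereas the methods speak of the front part of the body, and it was not possible to decide between them. Because every library held many tissues besides the eye, fewer photoreceptors and less RNA per photoreceptor cannot be told apart in any of the values.

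Rods and cones turn light into an electrical signal through a short G protein cascade. Light changes the shape of an opsin, the opsin activates transducin, and transducin relieves the inhibition of a phosphodiesterase that destroys cGMP. The fall of cGMP closes cation channels in the outer segment. Opsin kinases and arrestins then shut the opsin off, recoverins and guanylyl cyclase activating proteins set the pace according to calcium, and guanylyl cyclases make the cGMP anew. Rods and cones use separate copies of most of these proteins, and zebrafish carry further copies from a genome duplication. In zebrafish the retina acquires rods and cones of ultraviolet, blue, green and red type during the days before and around the age sampled here.

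dscaml1 (ENSDARG00000098057, chromosome 15 of GRCz11 from 12071037 to 12229874) had 399.6, 336 and 355 normalized counts in the mutant pools and 333, 395 and 375 in the wild-type pools. The level does not check the genotype labels, since the allele is a small frame shift. The libraries held 18725190 to 20476688 reads in mutants and 21863982 to 23516860 reads in wild type. Replicate 2 of both genotypes stood apart: counts of 2 libraries of a genotype differed by a chi-square per degree of freedom of 102 to 135 where replicate 2 was one of them, and of 21.1 and 24.3 for replicate 1 against replicate 3. The genotype test therefore held a term for replicate 2, and the results are also given from replicates 1 and 3 alone. That term takes up only a shift of replicate 2 that both genotypes share.

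No phototransduction gene passed the test between genotypes. Of the 36 genes tested, 0 were higher and 0 were lower in mutants at an adjusted p under 0.05 (limma), where 0.0235% of all 21302 genes tested were called higher and 0.0751% lower. The adjusted p of the 36 genes ran from 0.441 to 0.988 in limma. None had an unadjusted p under 0.05, which 14.0% of all genes had. Count tests on the recovered reads also called 0 of the 36, with 0.0845% of all genes called by edgeR and 2.73% by DESeq2. DESeq2 gave no adjusted p for at least opn1mw2, pde6ga, guca1b and guca1c, so it could not have called them. In no gene did the 3 mutant pools all lie above the 3 wild-type pools, as they did in 5.07% of all genes, or all lie below them, as they did in 4.55%.

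The 0 calls do not set the 36 genes apart, since very few of all genes were called. Their spread between pools was wide. The median standard error of the log2 fold change was 0.64 over the 36 genes and 0.17 over all genes tested, and the highest wild-type pool was a median of 4.85-fold above the lowest, against 1.44-fold over all genes. Among mutant pools the same ratio was 3.70 in the phototransduction genes and 1.55 over all genes. The fitted log2 fold change was above 0 in 34 of the 36, with the cone genes gnb3b (−0.29) and pde6c (−0.13) below it, and its median was 0.36 against 0.0050 over all genes. That median was 0.53 in rod genes and 0.20 in cone genes. Over the 36 genes the median fell to −0.17 once the wild-type pool of replicate 1 was dropped. Dropping the mutant pool of that number gave −0.064, so a single pool could turn the sign of the median. Dropping either pool of replicate 2 gave 1.24. The replicate 2 term then fitted the remaining pool of that number exactly, so 1.24 rests on replicates 1 and 3 alone.

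**Figure D1:**
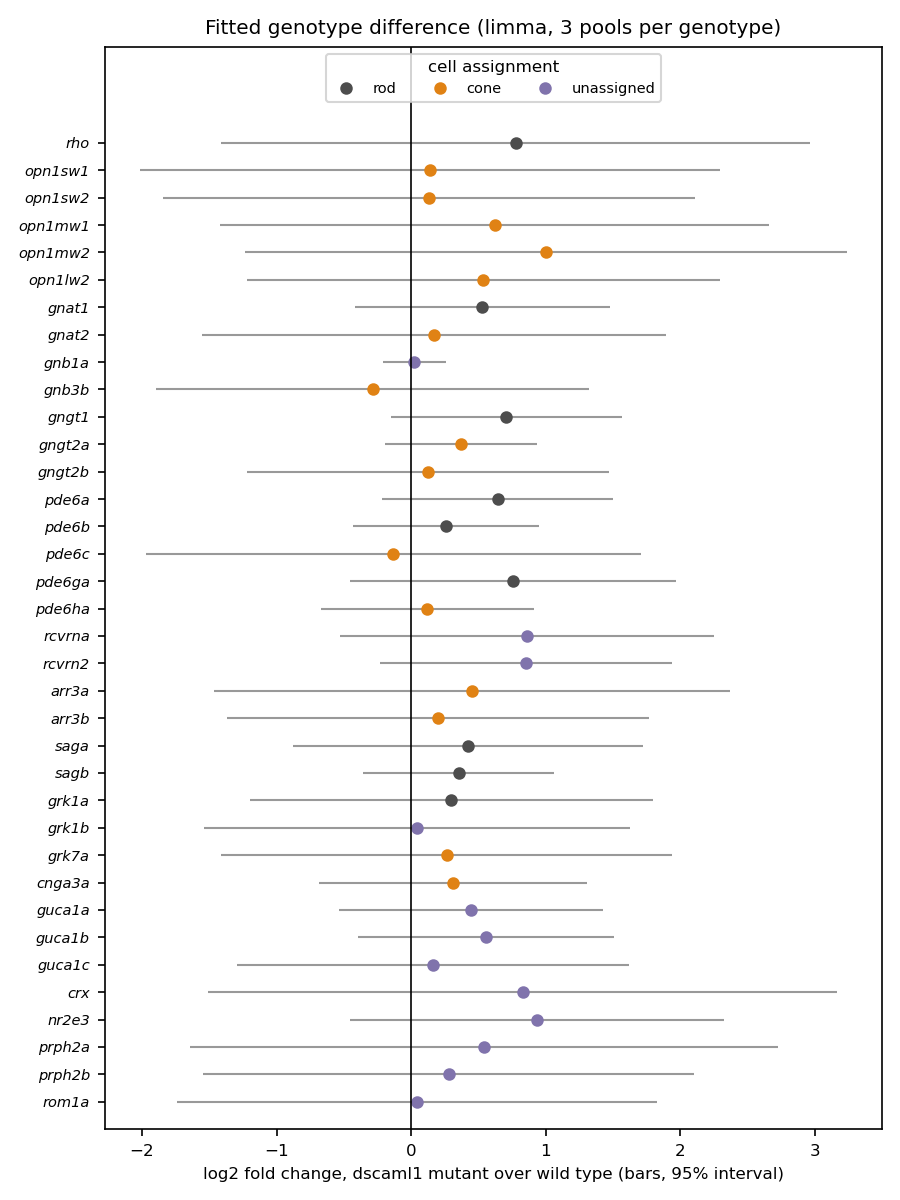
Fitted log2 fold change of each of the 36 genes, dscaml1 mutant over wild type on the log2(normalized count + 1) scale, with 95% intervals from limma, coloured by cell assignment. Every interval crosses 0, and the interval of gnb1a is the narrowest, from −0.21 to 0.26.

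Opsins are the light-sensing proteins of the cascade. rho, the rhodopsin of rods (ENSDARG00000002193, chromosome 8 of GRCz11 from 54076195 to 54077740), had 1517, 191 and 1421 normalized counts in mutant replicates 1, 2 and 3, and 125, 929.9 and 698 in wild-type replicates 1, 2 and 3. Mutant replicates 1 and 3 were the highest of the 6 pools, and mutant replicate 2 stood beside wild-type replicate 1 at the bottom, so the genotypes overlapped. The fitted difference was 0.78 on the log2 scale (95% interval −1.41 to 2.96, standard error 0.94), with an adjusted p of 0.761 in limma. Within pairs, rho in mutants was 12.1 times wild type in pair 1, 0.205 times in pair 2 and 2.04 times in pair 3.

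The 5 cone opsins tested shared the signs of rho within pairs, higher in the mutant pool of pairs 1 and 3 and lower in that of pair 2. opn1sw1, the ultraviolet opsin, had 845, 83.0 and 486 normalized counts in mutants and 119, 812 and 265 in wild type. opn1sw2, the blue opsin, had 293, 35.8 and 179 in mutants and 53.4, 303 and 88.1 in wild type. In both genes mutant replicate 1 and wild-type replicate 2 were the highest pools, and mutant replicate 2 was the lowest. Their log2 fold changes were 0.14 (standard error 0.93) and 0.13 (standard error 0.85), with adjusted p of 0.964 and 0.962 from limma.

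The 4 green opsins lie side by side within 20.7 kb of chromosome 6. Their sequences were not compared here, and how reads fitting more than 1 of them were counted is not given. The split of reads among them was therefore not checked. opn1mw1 had 428, 51.1 and 192 normalized counts in mutants and 39.5, 285 and 102 in wild type. Mutant replicate 1 was its highest pool and wild-type replicate 1 its lowest. opn1mw2 was low, at 27.9, 3.19 and 4.42 in mutants and 0.581, 12.1 and 2.96 in wild type, where the lowest value stands for 1 read. opn1mw3 had 2 reads in mutant replicate 3 and 0 in the other 5 libraries. opn1mw4 had 0 reads in every library, a count that allows up to 3 reads or, by library, 1.73 to 2.21 normalized counts. The tested pair gave log2 fold changes of 0.62 for opn1mw1 and 1.0 for opn1mw2 (standard errors 0.88 and 0.96), with adjusted p of 0.801 and 0.689 from limma.

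The red opsins lie with the blue opsin within 23.5 kb of chromosome 11 and are close copies of each other. opn1lw2 had 859.7, 261 and 496 normalized counts in mutants and 115, 1149 and 275 in wild type. Here wild-type replicate 2 was the highest pool and wild-type replicate 1 the lowest, and limma gave a log2 fold change of 0.54 (standard error 0.76) with an adjusted p of 0.80. opn1lw1 was at the limit of detection, with 7, 0 and 1 reads in mutants and 0, 7 and 10 reads in wild type. As with the green opsins, the split of reads between the red opsins was not checked. Over all 8 cone opsins, the summed normalized count was 2459, 434 and 1360 in mutant replicates 1, 2 and 3 and 328, 2565 and 739.6 in wild-type replicates 1, 2 and 3.

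**Figure D2:**
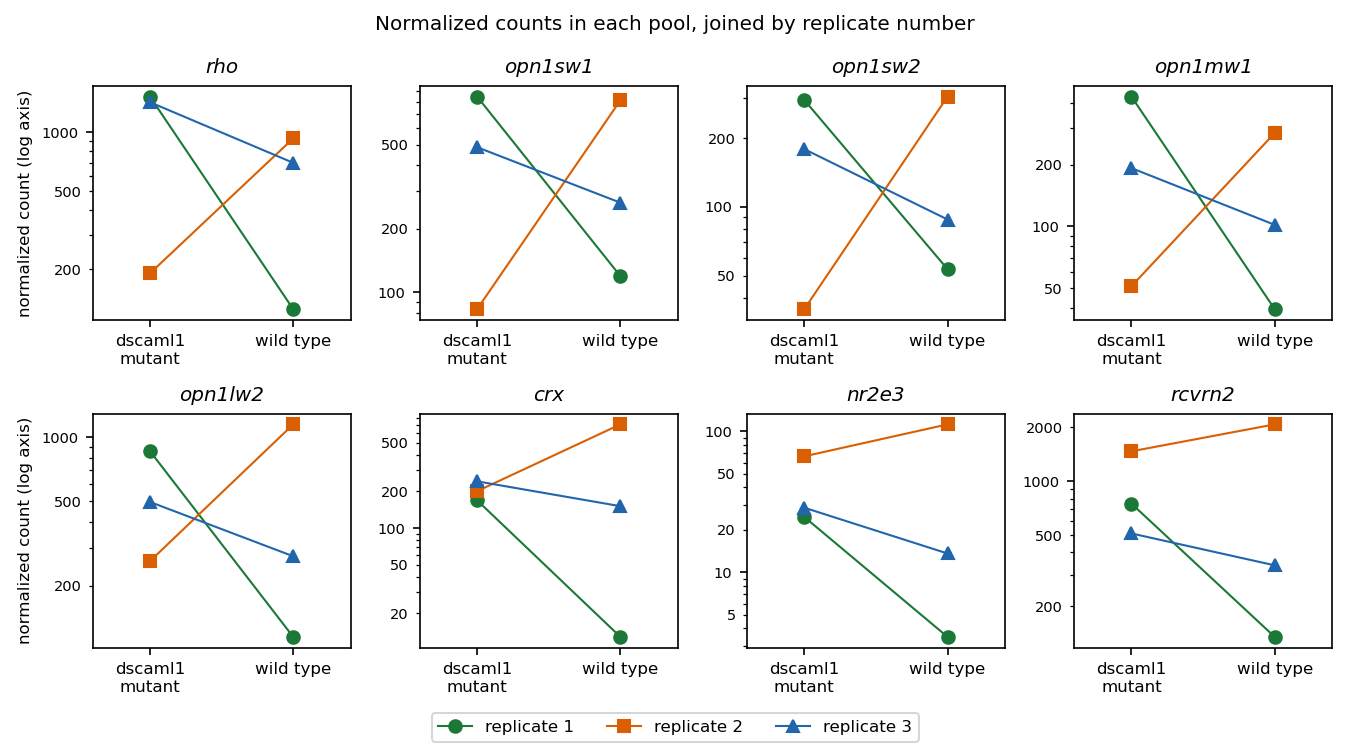
Normalized counts (log axis) of 8 genes in the 3 dscaml1 mutant pools, left, and the 3 wild-type pools, right, with a line between pools of equal replicate number. In the 5 opsins the lines of pairs 1 and 3 slope down toward wild type while that of pair 2 slopes up, and in nr2e3 and rcvrn2 replicate 2 is the highest pool of both genotypes.

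Transducin, the G protein that opsins activate, is built of α, β and γ subunits, and 7 of its genes were tested. gnat1, the rod α subunit, had 529, 169.9 and 598 normalized counts in mutants and 173, 281 and 366 in wild type. gngt1, the rod γ subunit, had 471, 312 and 752 in mutants and 184, 383 and 358 in wild type. gngt1 had the lowest p of the 36 genes, and its mutant replicate 2 lay below both of the higher wild-type pools (log2 fold change 0.71, standard error 0.37, 95% interval −0.15 to 1.57, adjusted p = 0.441 from limma). For gnat1 limma gave 0.53 (standard error 0.41) with an adjusted p of 0.607.

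Among the cone transducin genes, gnat2, the cone α subunit, had 319, 56.8 and 128 normalized counts in mutants and 53.4, 299 and 102 in wild type. gnb3b, a cone β subunit, had 684, 56.2 and 409 in mutants and 223, 412 and 314 in wild type, so that mutant replicate 2 was 0.136 times its wild-type partner. These 2 genes are named after their values were seen. gngt2a, a cone γ subunit, varied little, at 168, 137 and 230.4 in mutants and 122, 175 and 115 in wild type (log2 fold change 0.37, standard error 0.24, adjusted p = 0.540 from limma). Its copy gngt2b had 118 to 504 normalized counts in mutants and 187 to 504 in wild type. gnb1a, a β subunit that most cells use, was the steadiest of all, at 2455 to 2846 in mutants and 2502 to 2751 in wild type.

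The phosphodiesterase destroys cGMP, and rods and cones have their own catalytic and inhibitory subunits. pde6a, a rod catalytic subunit, had 59.1, 35.8 and 74.3 normalized counts in mutants and 20.9, 40.4 and 47.3 in wild type. pde6b, the other rod catalytic subunit, had 85.1, 44.7 and 52.3 in mutants and 38.3, 62.3 and 47.9 in wild type. pde6ga, the rod inhibitory subunit, had 14.3, 4.47 and 19.9 in mutants and 3.49, 6.34 and 10.1 in wild type, or 6 to 27 reads. In each of the 3, mutant replicates 1 and 3 were above wild-type replicates 1 and 3 and mutant replicate 2 was below wild-type replicate 2. Their log2 fold changes were 0.64, 0.26 and 0.75, with adjusted p of 0.487, 0.743 and 0.563 from limma. The cone catalytic gene pde6c, at 12.8 to 85.1 in mutants and 19.2 to 96.9 in wild type, had a wider spread. The cone inhibitory gene pde6ha, at 22.3 to 125 in mutants and 46.7 to 75.5 in wild type, was the only phosphodiesterase gene for which replicate 2 was the lowest of the wild-type pools.

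Shut-off of the opsin rests on kinases, arrestins and the calcium sensor recoverin, and 9 such genes were tested. rcvrn2, a recoverin, had 749.9, 1471 and 511 normalized counts in mutants and 135, 2081 and 339 in wild type. rcvrna, another recoverin, had 60.4, 117 and 40.5 in mutants and 7.55, 208 and 27.2 in wild type. In both recoverins replicate 2 was the highest pool of each genotype, unlike the opsins, in which it was the lowest mutant pool. Their log2 fold changes were 0.85 (standard error 0.47) and 0.86 (standard error 0.60), with adjusted p of 0.466 and 0.565 from limma.

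sagb, a rod arrestin, had 1013, 454 and 975 normalized counts in mutants and 454, 741 and 639.7 in wild type (log2 fold change 0.35, standard error 0.31, adjusted p = 0.651 from limma). It lies on the chromosome of dscaml1, 33.4 Mb away. The other rod arrestin, saga, had 44.7 to 118 in mutants and 25.6 to 101 in wild type. The cone arrestins, named here after their values were seen, varied more among wild-type pools than among mutant pools: arr3a had 356, 140.5 and 184 in mutants and 37.8, 672 and 138 in wild type, a 17.8-fold range over the wild-type pools and a 2.53-fold range over the mutant pools. arr3b had 44.1 to 95.5 in mutants and 17.4 to 174 in wild type. The kinases grk1a, grk1b and grk7a lay between 6.39 and 89.7 in mutants and between 7.69 and 111 in wild type, with log2 fold changes of 0.30, 0.046 and 0.26.

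The cGMP-gated channel carries the light-sensitive current. cnga3a, its cone α subunit, had 24.0, 26.8 and 15.5 normalized counts in mutants and 9.30, 54.8 and 9.46 in wild type, with wild-type replicate 2 the highest pool (log2 fold change 0.31, standard error 0.43, adjusted p = 0.794 from limma). cngb3.1, a cone β subunit, had 5 to 8 reads in mutants and 6 to 13 reads in wild type. The rod channel symbol cnga1 matched nothing, and the 2 genes cnga1a and cnga1b of the table had 0.0 to 13.6 normalized counts in mutants and 1.16 to 16.1 in wild type.

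cGMP is made anew by guanylyl cyclases that calcium-binding activating proteins control. guca1a, one such activating protein, had 20.1, 11.5 and 39.0 normalized counts in mutants and 12.8, 7.49 and 34.9 in wild type. It was the only gene of the 36 that was higher in the mutant pool of all 3 pairs, by 1.58, 1.53 and 1.12 times, and its genotypes overlapped (log2 fold change 0.44, standard error 0.42, adjusted p = 0.686 from limma). guca1b had 27.3, 7.02 and 16.2 in mutants and 7.55, 8.07 and 14.8 in wild type. guca1c, which lies on chromosome 15 at 9.17 Mb from dscaml1, had 15.6, 1.92 and 6.62 in mutants and 4.07, 8.07 and 4.73 in wild type, or 3 to 24 reads. The log2 fold changes of guca1b and guca1c were 0.56 and 0.16, with adjusted p of 0.588 and 0.935 from limma. The cyclase gc2 had 1 to 5 reads in mutants and 2 to 14 reads in wild type. gucy2d, which RefSeq lists with gc3 among its synonyms, had 44.7 to 112 normalized counts in mutants and 52.0 to 77.8 in wild type.

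crx and nr2e3 encode transcription factors of photoreceptors: crx activates genes of rods and cones, and nr2e3 is known in mammals for holding cone genes down in rods. crx (chromosome 5 of GRCz11 from 36932718 to 36936443) had 169, 201 and 242 normalized counts in mutants and 12.8, 711 and 151 in wild type. The mutant pools lay within 1.43-fold of each other, while the wild-type pools spanned 55.6-fold, from 22 to 1233 reads, and enclosed all mutant values. nr2e3 had 24.7, 66.4 and 28.7 in mutants and 3.49, 112 and 13.6 in wild type, with replicate 2 the highest pool of both genotypes. The log2 fold changes were 0.83 (standard error 1.0) and 0.93 (standard error 0.60), with adjusted p of 0.761 and 0.530 from limma.

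prph2a, prph2b and rom1a encode membrane proteins that shape the rims of outer segment discs. prph2a had 96.8, 8.94 and 73.6 normalized counts in mutants and 10.5, 72.1 and 27.2 in wild type. prph2b had 216, 18.5 and 110.4 in mutants and 34.9, 113 and 63.8 in wild type. rom1a had 57.8, 13.4 and 64.8 in mutants and 12.2, 73.8 and 50.8 in wild type. In all 3, mutant replicate 2 was the lowest mutant pool and wild-type replicate 1 the lowest wild-type pool. Their log2 fold changes were 0.54, 0.28 and 0.041, with adjusted p of 0.843, 0.907 and 0.988 from limma.

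**Figure D3:**
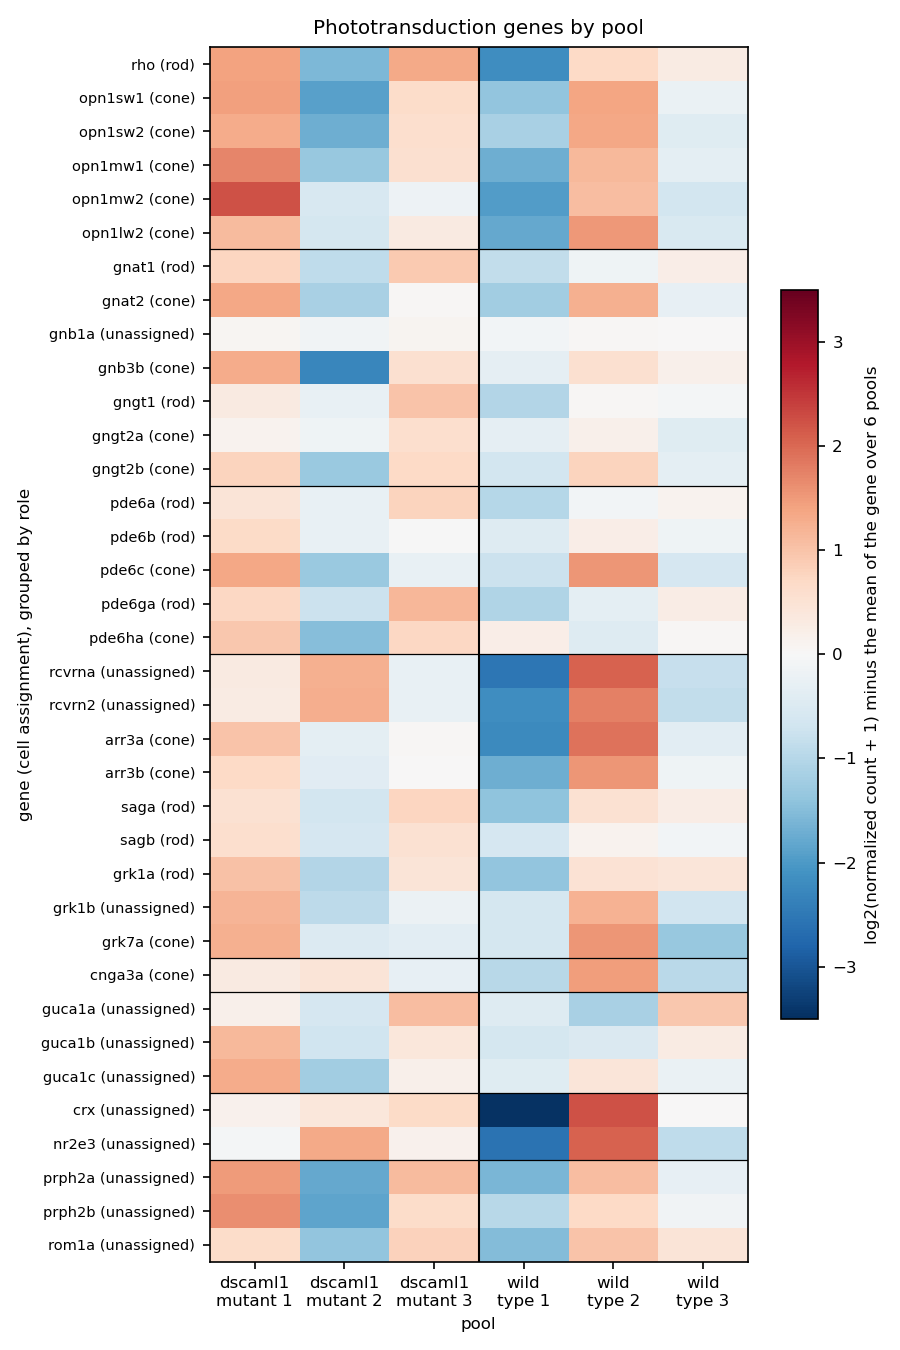
Level of each of the 36 genes in the 6 pools (columns, dscaml1 mutants left of wild type), as log2(normalized count + 1) minus the mean of the gene over the pools, with genes in rows by role. Mutant replicate 2 and wild-type replicate 1 are blue, that is low, in most rows, while crx, nr2e3, cnga3a and both recoverins are not low in mutant replicate 2.

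The differences within pairs had opposite signs. In pair 1 all 36 genes were higher in the mutant pool, in pair 2 35 of 36 were lower in it, and in pair 3 all 36 were higher. Of all 21302 genes tested, 10742 were higher in it in pair 1, 10706 lower in pair 2 and 11021 higher in pair 3. Most of the 36 genes moved together between pools, so each pair is 1 comparison of 2 pools and not 36 separate results. The combination of higher in pairs 1 and 3 and lower in pair 2 was met by 35 of the 36 genes, with guca1a the exception, and by 12.3% of all genes tested. The median difference, mutant minus wild type on the log2 scale, was 2.02 in pair 1, −1.64 in pair 2 and 0.62 in pair 3, against 0.0039, −0.0019 and 0.017 over all genes tested. These medians correspond to 4.07, 0.321 and 1.54 times the wild-type level.

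In pair 1, 32 of the 36 genes were at least 2-fold higher in the mutant pool on the log2(normalized count + 1) scale, as were 3.03% of all genes, and the 4 others were gnb1a, gngt2a, pde6ha and guca1a. In pair 2, 23 of the 36 were at least 2-fold lower in the mutant pool, as were 3.29% of all genes. In pair 3, 6 of the 36 (rho, opn1sw2, gngt1, gngt2b, nr2e3 and prph2a) were at least 2-fold higher in the mutant pool, as were 2.3% of all genes. Wild-type replicate 1 was the lowest wild-type pool for 31 of the 36 genes, which it was for 28.8% of all genes. Mutant replicate 2 was the lowest mutant pool for 31 of the 36 genes, which it was for 42.4% of all genes, and the 5 others were rcvrna, rcvrn2, cnga3a, crx and nr2e3.

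The rod and cone genes, taken as sets, differed in how far they moved in pairs 1 and 2. In pair 2 the median log2 difference was −0.71 over the 9 rod genes and −2.13 over the 15 cone genes, and in pair 1 it was 1.61 and 2.39. In pair 3 the medians were 0.64 for rod genes and 0.67 for cone genes. rho stood out among rod genes, with −2.28 in pair 2 and 3.59 in pair 1. The 5 cone opsins tested had medians of −2.46 and 2.89 there, so the wider movement of the cone set did not extend to a clear gap between opsins. Summed over the 9 rod genes, the normalized counts were 3847, 1269 and 4048 in mutants and 1035, 2584 and 2288 in wild type. Summed over the 19 cone genes found, they were 4915, 1079 and 3026 in mutants and 1102, 5118 and 1806 in wild type. Wild-type replicate 2 thus held the highest cone sum of the 6 pools but only the third highest rod sum. The difference between rod and cone genes is a description, and no test of it was run.

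**Figure D4:**
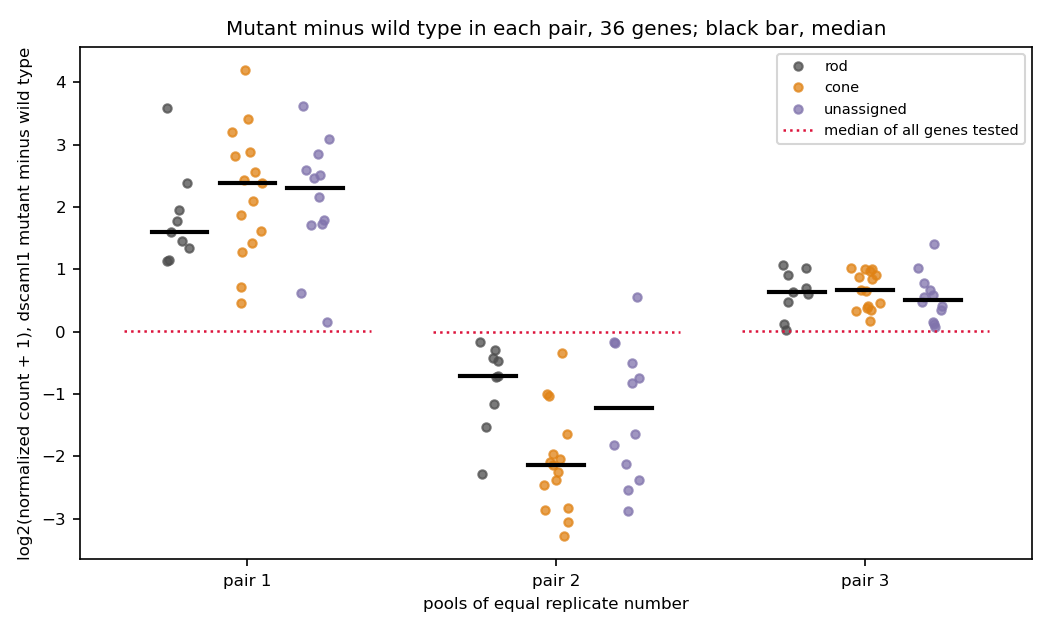
Difference of log2(normalized count + 1), dscaml1 mutant minus wild type, of each of the 36 genes within pools of equal replicate number, with rod, cone and unassigned genes apart and their medians as black bars. Points lie above 0 in pairs 1 and 3 and, for all genes but guca1a, below 0 in pair 2, while the dotted median of all genes lies at 0.0039, −0.0019 and 0.017.

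The genes parted into sets by their level in replicate 2. In 25 of the 36 genes, replicate 2 was the highest of the wild-type pools and the lowest of the mutant pools, which held for 4.61% of all genes. All 6 opsins tested were among these 25, as were prph2a, prph2b, rom1a and the arrestins. In 4 of the 36 genes (rcvrna, rcvrn2, cnga3a and nr2e3) replicate 2 was the highest pool of both genotypes, which held for 31.0% of all genes. The median difference between replicate 2 and the mean of replicates 1 and 3 was −1.43 on the log2 scale in mutants and 1.58 in wild type, against −0.020 and 0.0075 over all genes. Shifts of opposite sign are not taken up by the replicate 2 term and stay in the standard errors. For the 2 transcription factors the median difference was 0.64 in mutants and 3.88 in wild type. Mutant replicate 2, the lowest mutant pool for all 6 opsins, was the highest mutant pool for nr2e3 and the middle one for crx.

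**Figure D5:**
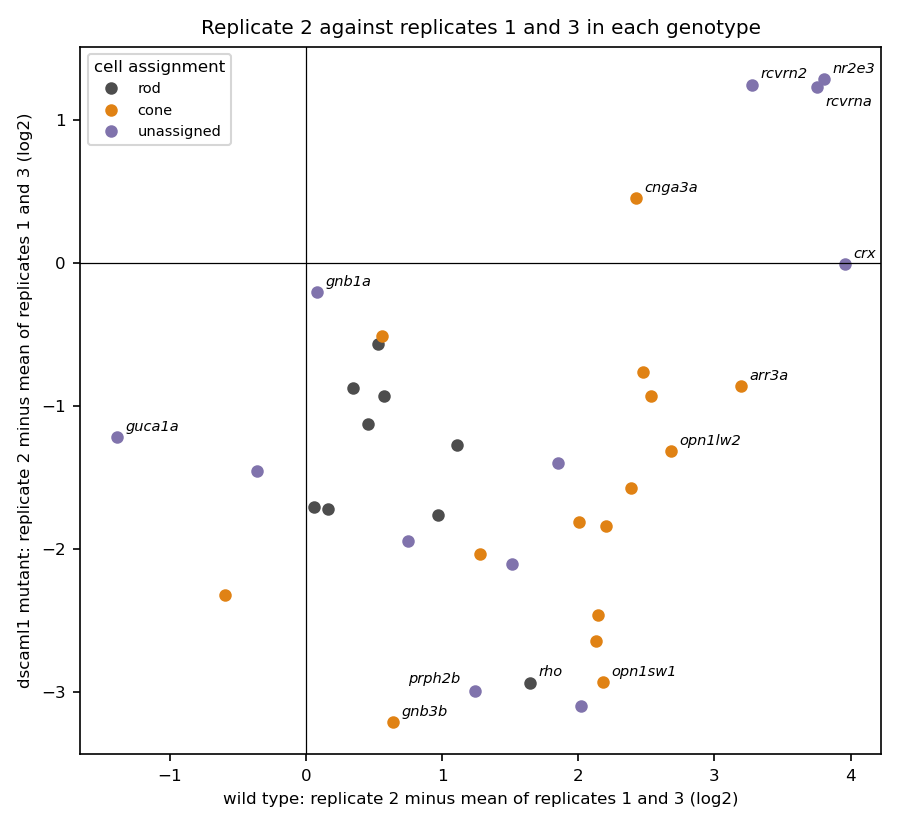
Replicate 2 minus the mean of replicates 1 and 3 on the log2(normalized count + 1) scale in wild type (x axis) and in dscaml1 mutants (y axis), 1 point per gene for the 36 genes, coloured by cell assignment. Most points lie at the lower right, high in wild-type replicate 2 and low in mutant replicate 2, while nr2e3, rcvrna, rcvrn2 and cnga3a lie at the upper right.

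With both replicate 2 libraries left out, the remaining mutant and wild-type pools separated. Both mutant pools lay above both wild-type pools in 35 of the 36 genes, against 22.8% of all genes tested. This in part restates the differences within pairs. The pair left out was the one in which 35 of the 36 genes were lower in the mutant pool. In each pair kept, all 36 were higher in the mutant pool. With only mutant replicate 2 left out, the genotypes did not overlap in 11 of the 36 genes, against 29.3% of all genes in either direction, and with only wild-type replicate 2 left out in 9 of the 36, against 23.9%, so that both shares were near those of all genes. An unadjusted p under 0.05 with a higher level in mutants was found for 25 of the 36 genes, and for 5.67% of all genes (limma with 2 pools per genotype). None passed adjustment: the adjusted p of the 36 genes ran from 0.178 to 0.838 in limma, and 0 of all genes passed 0.05. In this subset the log2 fold change of rho was 2.30, that of opn1sw1 was 1.84 and that of prph2a was 2.25. The choice of these pools was made with their values known, and 1 of the pools, wild-type replicate 1, was the lowest wild-type pool in 31 of the 36 genes. Most of the 36 genes moved together between pools, so the counts of 35 and 25 genes are not that many separate results.

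Other genes of the cascade, taken as a list by role, gave no call either. Of 28 genes found, 23 were tested and 0 were higher and 0 lower at an adjusted p under 0.05 (limma), and their median log2 fold change was 0.26. The genes with the lowest p were rgs16, a regulator of G protein signalling, with 536, 151 and 562 normalized counts in mutants and 157, 95.7 and 219.9 in wild type, and unc119a, a carrier of transducin, with 26.0, 36.4 and 33.1 in mutants and 66.8, 70.3 and 69.2 in wild type. rgs16 had a log2 fold change of 1.26 with overlapping pools, unc119a had −1.10 with every mutant pool below every wild-type pool, and both had an adjusted p of 0.115 from limma. Of the 23, 14 were higher in pairs 1 and 3 and lower in pair 2, as were 12.3% of all genes.

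Of 15 further photoreceptor regulators tested, 0 were called in either direction (limma). Replicate 2 was the highest pool of both genotypes in 9 of the 15, against 31.0% of all genes. samd7, a regulator of photoreceptor gene silencing in mice, had 39.6, 99.6 and 33.1 normalized counts in mutants and 8.71, 208 and 20.1 in wild type. otx5, a homeobox gene of the same family as crx, had 90.3, 100.3 and 119 in mutants and 8.71, 338 and 56.2 in wild type. six7, a regulator of green and blue cone opsins in zebrafish, had 38.3, 46.0 and 39.0 in mutants and 3.49, 241 and 16.0 in wild type. All 3, named after their values were seen, shared with crx a wild-type range of 23.8-fold or more, with wild-type replicate 1 at the bottom and wild-type replicate 2 at the top. The list was not uniform in this. The range was 36.7-fold in foxq2 but 1.04-fold in mafba, 1.06-fold in tbx2b and 1.19-fold in prdm1a, all likewise named after their values were seen. Wild-type replicate 1 was the lowest wild-type pool in 11 of the 15, against 28.8% of all genes. thrb, the receptor that directs red cone fate, had the lowest p of the list (168, 449 and 172 in mutants, 114, 340.1 and 116 in wild type, log2 fold change 0.51, adjusted p = 0.158 from limma).

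Marker lists of neighbouring cell types moved between pools as well, and their part in the results was not tested. Of 21 genes of the outer segment, cilium and synapse tested, 0 were called (limma), and the sum over the 26 found was 3475 to 4654 normalized counts in mutants and 2094 to 4297 in wild type, lowest in wild-type replicate 1. Of 16 genes of other retinal neurons, 0 were called. Their sum was 5990 to 7917 in mutants and 4032 to 7457 in wild type. The median log2 fold change of the 16 was 0.57, against 0.36 in the phototransduction genes and 0.0050 over all genes. A raised median was thus not particular to the phototransduction genes. In 2 of the 16 every mutant pool lay above every wild-type pool, as in 5.07% of all genes. Wild-type replicate 1 was the lowest wild-type pool in 12 of the 16, against 28.8% of all genes. Mutant replicate 2 was the lowest mutant pool in 7 of the 16, near the share of 42.4% over all genes. vsx1, a bipolar cell regulator named after its values were seen, had 387, 459 and 495 in mutants and 25.6, 482 and 244 in wild type, so that it was low in wild-type replicate 1 but not in mutant replicate 2. Of 11 lens genes tested, 0 were called. All 11 had wild-type replicate 1 as the lowest wild-type pool, against 28.8% of all genes. The sum over the 12 found was 3097 to 7310 in mutants and 2006 to 7024 in wild type. Of 13 genes of the pigment epithelium and visual cycle, 1 was lower in mutants, against 0.0751% of all genes. The sums were 3831 to 6852 in mutants and 3685 to 7134 in wild type. A large part came from pmela, named after its values were seen, with 2082 to 3511 in mutants and 1641 to 3510 in wild type. The gene called was stra6, a retinol uptake receptor, at 201, 175 and 183 in mutants and 371, 391 and 449 in wild type (log2 fold change −1.11, adjusted p = 0.039 from limma).

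Of 7 pineal genes tested, 0 were called (limma), and exorh, the opsin of the pineal gland and not of the retina, had 40.3, 51.7 and 51.5 normalized counts in mutants and 51.7, 62.3 and 62.1 in wild type. This gene, named after its values were seen, did not share the low levels of rho in mutant replicate 2 and wild-type replicate 1. Higher in pairs 1 and 3 and lower in pair 2 held for 3 of the 7, against 12.3% of all genes. Wild-type replicate 1 was the lowest wild-type pool in 4 (28.8% of all genes) and mutant replicate 2 the lowest mutant pool in 2 (42.4%). irbpl was among the 3, at 17.5, 0.639 and 17.7 in mutants and 0.0, 2.31 and 3.55 in wild type. It too was named after its values were seen. The parapinopsin and parietopsin genes of the pineal list did not reach the mean of 5. Of 10 hepatocyte genes, 4 were lower in mutants (limma), against 0.0751% of all genes. The sums over the 10 were 18036 to 35881 in mutants and 41157 to 59637 in wild type, lowest in replicate 2 of both genotypes. Of the 10, 0 were higher in pairs 1 and 3 and lower in pair 2, against 12.3% of all genes.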

How the data were processed

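Per the labels, the submitters' processing notes name TopHat2, HISAT2, HTSeq and GRCz11, whose roles and versions are not given in the sources used. The methods describe polyA-selected, strand-specific libraries sequenced on a NextSeq instrument. The deposited signal values are read counts per gene, which the authors had scaled by a size factor for each library. In units of what 1 read is worth, 100% of values were whole numbers to within 0.001 reads. The authors' own columns in the deposited tables (log2 fold changes, standard errors, p-values and a likelihood ratio score) and 3 short tables were not used, and 0 sample columns were left unmapped.

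The phototransduction genes and the other gene lists were chosen with earlier results of these data known, and so was the replicate 2 term. Groups and replicate numbers came from the sample titles and genotype labels. No source names the clutch or collection day of a pool, so p-values measure the spread between pools, which may be technical in part. All pools of a genotype differed by more than counting noise, with 21.1 to 135 chi-square per degree of freedom.

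With a mean of at least 5 as the filter, 21302 genes were tested on log2(value + 1), a scale that understates changes at low levels, with limma (version 3.58.1, R 4.3.3), a mean-variance trend and Benjamini-Hochberg adjustment. Genotype and the replicate 2 term left 3 residual degrees of freedom. On the recovered reads, edgeR's quasi-likelihood test (version 4.0.16) called 18 genes and DESeq2's likelihood ratio test (version 1.42.0) called 581 genes at an adjusted p under 0.05, both with the replicate 2 term. TMM factors were 0.967 to 1.05. With 3 pools per genotype two-sided exact permutation of 1 gene cannot go below p = 0.1, and none was run. Deviations from the genotype mean of equally numbered pools correlated over all genes (r = 0.65, 0.86 and 0.70 in pairs 1, 2 and 3), as did those of unequal numbers 1 and 3 (0.50 for mutant 1 with wild type 3, 0.35 for mutant 3 with wild type 1). Over the 36 genes r was 0.16, 0.37 and 0.68 for equal numbers. For unequal numbers it ran from −0.59 (mutant 3 with wild type 2) to 0.27 (mutant 3 with wild type 1). A correlation across genes leaves out the mean shift that the 36 genes share. In replicate 2 the median shifts had opposite signs, −1.43 in mutants and 1.58 in wild type. A fit with replicate number as a block was an alternative. The fits were also run on simulated counts whose replicate 2 shift was the same in both genotypes. Those counts do not cover the opposite replicate 2 shifts of the phototransduction genes. Python 3.11.15 with pandas 2.3.3 and matplotlib 3.10.9 served for other steps.

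Values were printed in every library for rho and the cone opsins, crx and nr2e3, any gene past 0.05 or with non-overlapping genotypes, and up to 3 genes of each role with the lowest p. From the other lists at most 2 genes with the lowest p and any gene that a result turns on were named, and other genes are marked as named after their values were seen. Levels were not compared between genes, since transcript lengths were not used here. Gene names came from the deposited table.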

Additional observations from a re-analysis of the deposited data

How the results depend on the processing

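Each result was recomputed under 18 alternatives, 12 of them other than leaving out a single library. No alternative brought any phototransduction gene past an adjusted p of 0.05. Over the 24 fold changes recomputed, the adjusted p, where the test gave one, lay between 0.207 and 1.0. With pools blocked by replicate number, 0 of the 36 genes were called by limma and 0 by edgeR, with a median log2 fold change of 0.36 and 0.38, and only gngt1 had an unadjusted p under 0.05. The block changed no call. The number of genes with non-overlapping genotypes was 0 with all libraries, where 5.07% of all genes lay above and 4.55% below. With replicates 1 and 3 only it was 35, all higher in mutants, against 22.8% of all genes. That subset leaves out the pair in which 35 of the 36 genes were lower in mutants. On leaving out 1 library it was 0 to 11. It was 11 without mutant replicate 2 (29.3% of all genes) and 9 without wild-type replicate 2 (23.9% of all genes). For the other single libraries no share over all genes was worked out. The median log2 fold change ran from −0.17 to 1.24 on leaving out 1 library, the upper value when either replicate 2 library was left out, since the replicate 2 term then takes up the one that remains.

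Signs turned outside these in 7 cases: rom1a at −0.039 (edgeR), −0.068 (DESeq2 with the replicate 2 term) and −0.022 (DESeq2 with genotype only), and, with DESeq2 and genotype only, rcvrna at −0.16, cnga3a at −0.15, crx at −0.52 and nr2e3 at −0.11; the cause was not tested. On leaving out 1 library, 13 fold changes took both signs: rho −0.36 to 2.30, opn1sw1 −0.68 to 1.84, opn1sw2 −0.52 to 1.72, opn1mw1 −0.20 to 2.16, opn1mw2 −0.068 to 2.32, opn1lw2 −0.20 to 1.87, pde6b −0.041 to 0.63, cnga3a −0.050 to 0.97, guca1c −0.42 to 1.06, crx −0.54 to 2.15, prph2a −0.32 to 2.25, prph2b −0.40 to 1.69 and rom1a −0.87 to 1.25. Where a replicate 2 library was left out, the replicate 2 term fitted the remaining one exactly. That library then had no bearing on the fold change or its standard error. Each upper value came from leaving out either replicate 2 library, which in these fits leaves out the effect of both. Depth limits opn1mw2, opn1mw3, opn1mw4, opn1lw1, cngb3.1 and gc2, and counting floors cover counting error only.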
